A study of Homo sapiens with 8 samples.

Results

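This account covers 42 genes of glycolysis and of the hypoxia response in HMLE, immortalized epithelial cells from human breast. The genes were taken by symbol from a list of pathway members. Its rule uses no measured value, but it was drawn up with earlier results of these data known. All 42 were found among the 25166 genes of the deposited table. All cells carried a lentiviral shRNA and had been selected with puromycin at 0.5 µg/mL. The shRNA was either a scrambled control (SHC002) or a single hairpin against SOX4, a transcription factor, so that the knockdown rests on 1 hairpin. Cells were left untreated or exposed to TGF-β for 16 h. The dose of TGF-β is not given in the sources used here. RNA sequencing gave 2 libraries for each of the 4 groups, 8 in all. Separate cultures for the libraries of a group are not stated in the labels, so the spread that the p-values rest on may be purely technical.

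Glycolysis splits glucose into pyruvate through a chain of enzymes in the cytosol, and lactate dehydrogenase turns pyruvate into lactate when it does not enter the mitochondria. Many of these enzymes are encoded by target genes of the hypoxia-inducible factors (HIF), in which an oxygen-regulated α subunit pairs with ARNT. When oxygen is present, prolyl hydroxylases (EGLN proteins) mark the α subunit for VHL, which leads to its destruction, so that HIF activity is mostly set at the protein and not at the mRNA. Mammary epithelial lines in culture with glucose commonly express most glycolytic enzymes at high levels.

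Levels are given in FPKM, fragments per kilobase of transcript, scaled to the mapped reads of each library, as restored from a table in which 34.1% of cells had lost their decimal mark. Most damaged cells could be read in 3 ways that differ by factors of 10. The reading was estimated by a model from the likely spread of the libraries, the size of effects and the level. Where a gene had a single RefSeq transcript, or its other transcripts were at 0 in most libraries, whole numbers of reads were searched for. Where found, they were weighed in as well. Of the 42 genes, 18 were tested in a fit of 5184 genes with whole reads. A further 17 were tested in a fit of 10511 genes, in which 1 RefSeq transcript stands for each gene, so that its value is not the gene's total. For 5 genes the readings could not be settled, and 2 genes stayed below the filter of 1 FPKM in at least 2 libraries. Of the tested members, 27 had a settled level. For SLC16A3, HK1, PFKFB3, LDHA, PDK1, CA12, P4HA1 and PLOD2 only the pattern across libraries was settled. Their levels are known only up to a factor of 10 or 100, and their sizes of change depend on the reading used. A change is called at a limma adjusted p under 0.05 (Benjamini-Hochberg over all genes of a fit), and its size is a difference in log2(FPKM + 1) with its standard error (SE), a scale that understates the change of low genes.

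SOX4 was measured first as a check of the labels. Untreated scrambled-shRNA libraries held 8.74 and 8.04 FPKM and TGF-β-treated ones 18.7 and 17.6. The SOX4-shRNA libraries held 0.923 and 1.02 FPKM untreated and 2.37 and 1.88 with TGF-β. No SOX4-shRNA library reached any scrambled one, and SOX4 fell by 2.25 ± 0.13 in untreated cells (limma adjusted p = 0.00012) and by 2.62 ± 0.13 with TGF-β (adjusted p = 5.7e-05).

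Summed over the genes with whole reads, the 8 libraries held 3.85 to 5.14 M reads (M for mega), with medians of 356 to 474 reads per gene. The 7 epithelial marker genes looked up were all expressed, with KRT5 between 2890 and 3940 FPKM. Leukocyte and endothelial markers summed to at most 0.449 and 0.175 FPKM in any library. Of 6 fibroblast markers, LUM and PDGFRA stayed below 0.2 FPKM in every library, and the sum of the 6, most of it COL1A1, was 73.2 to 80.2 FPKM in untreated and 116 to 134 in TGF-β-treated scrambled-shRNA cells, against 11 to 14.5 and 28.7 to 37.9 in SOX4-shRNA cells. This list therefore moved with the knockdown, and its part in the results below was not tested. In bulk RNA, fewer cells of a type and less RNA per cell cannot be told apart.

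SOX4 knockdown was accompanied by lower mRNA of 5 members, all of them glycolytic: PGK1, PKM, TPI1, LDHA and PFKFB4. Each was lower in untreated and in TGF-β-treated cells. Among the 18 members with whole reads, 2 fell and 0 rose with the knockdown in untreated cells, where 3.24% of all genes of that fit fell and 1.1% rose, and again 2 fell and 0 rose with TGF-β, where 2.87% fell and 1.12% rose (limma-voom on whole reads also called 1 that rose there, HK2). Among the other 17, 3 fell and 0 rose in untreated cells, where 0.856% of genes fell and 0.228% rose, and 3 fell and 0 rose with TGF-β, where 0.733% fell and 0.133% rose. The median change of these 17 was -0.29 in both comparisons, while the median over all genes was 0.01 or less in size. For the 18 with whole reads it was -0.08 and -0.03.

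**Figure D1:**
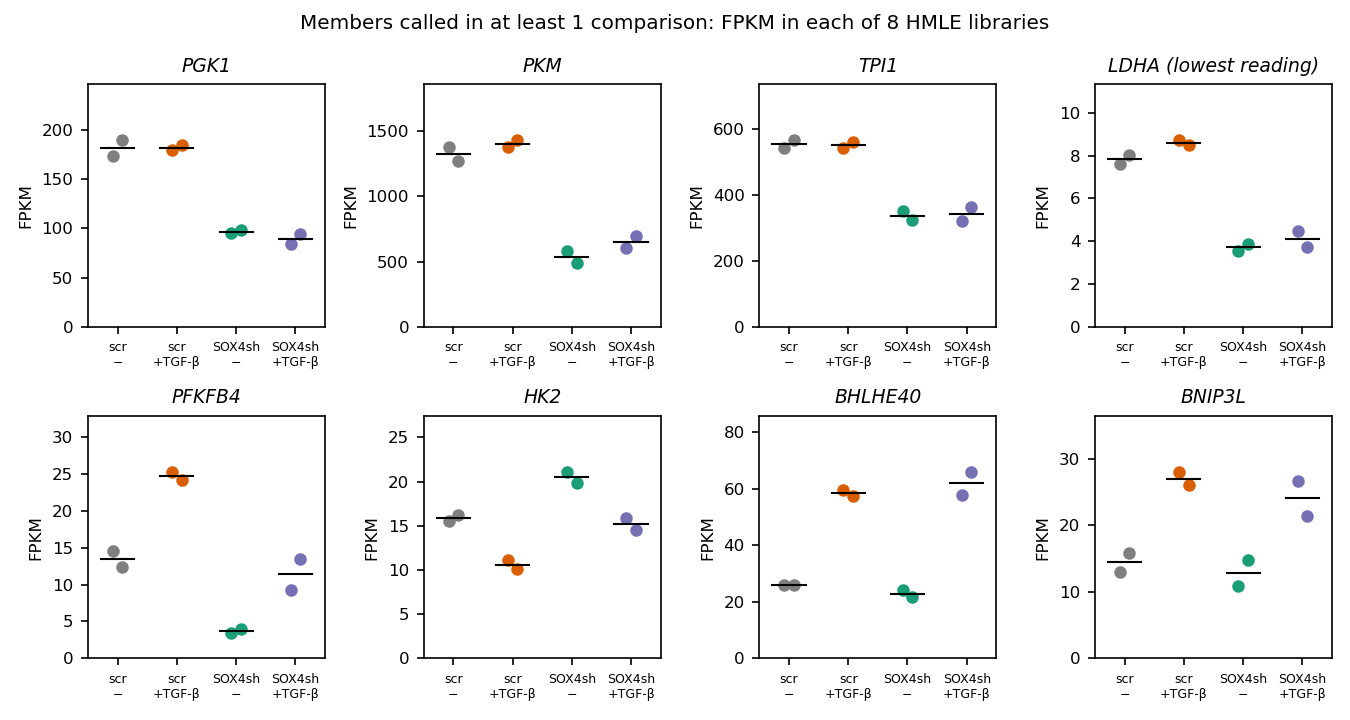
FPKM (vertical axes from 0, a scale for each gene) of the 8 members called in at least 1 comparison, in each of the 8 libraries (points) with the mean of each group (bars), for scrambled (scr) and SOX4 shRNA (SOX4sh), untreated (−) or with TGF-β. PGK1, PKM, TPI1 and LDHA form a higher scrambled and a lower SOX4-shRNA level at either treatment, BHLHE40 and BNIP3L follow TGF-β, and PFKFB4 moves with both; LDHA is drawn at its lowest possible reading.

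In the lower, ATP-yielding stretch of glycolysis, 2 of 6 members fell. PGK1, phosphoglycerate kinase, makes the first ATP of this stretch. It held 173 and 189 FPKM in untreated and 179 and 184 in TGF-β-treated scrambled-shRNA cells, against 95.1 and 97.7, and 84.0 and 93.7, in SOX4-shRNA cells. The 2 sets of 4 libraries did not overlap. Under SOX4 shRNA both treated libraries lay below both untreated ones, a difference of -0.12 ± 0.10 that was not called. PGK1 fell by 0.90 ± 0.10 in untreated cells (limma adjusted p = 0.0032) and by 1.03 ± 0.10 with TGF-β (adjusted p = 0.0019). Annotated exons of ATP7A and C4orf46P2 overlap those of PGK1 on the same strand, so reads of the shared stretches cannot be assigned.

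PKM, pyruvate kinase, catalyses the last step and was measured by NM_002654, the transcript of the PKM2 form. Scrambled-shRNA libraries held 1380 and 1270 FPKM untreated and 1380 and 1430 with TGF-β. SOX4-shRNA libraries held 583 and 489 in the untreated pair and 607 and 693 in the treated pair, all below every scrambled one. The scrambled values had kept their decimal marks and the SOX4-shRNA values stand at their highest possible reading, so the other readings could only make the fall larger. PKM fell by 1.31 ± 0.12 in untreated cells (limma adjusted p = 0.0042) and by 1.11 ± 0.12 with TGF-β (adjusted p = 0.0089). Without scrambled TGF-β library 1 or 2, or SOX4-shRNA TGF-β library 1, the second call was lost (-1.14, -1.08 and -1.02, with adjusted p = 0.13, 0.14 and 0.069), as was the first, narrowly, in a fit of the compared groups alone (adjusted p = 0.053). Whether other splice forms of the gene changed alike was not tested.

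GAPDH, PGAM1 and ENO1, which catalyse the steps between or beside these, are given here for completeness of the chain and were chosen after their values were seen. GAPDH, whose 8 values had all kept their marks, held 2720 to 2980 FPKM in the 4 scrambled and 1610 to 2110 in the 4 SOX4-shRNA libraries, with changes of -0.62 ± 0.14 and -0.54 ± 0.14 that did not pass the test (limma adjusted p = 0.10 and 0.15). ENO1, an enolase, was at -0.44 ± 0.11 and -0.34 ± 0.11 and PGAM1, a phosphoglycerate mutase, at -0.40 ± 0.12 and -0.27 ± 0.12, neither called. ENO2, the enolase best known from neurons, held 2.76 to 3.68 FPKM, with changes of 0.08 ± 0.15 and 0.00 ± 0.15. Antisense genes overlap exons of GAPDH and of ENO1 (ENO1-AS1 for the latter), and without the strand setting of the counting their reads cannot be told apart. GAPDH has 65 annotated pseudogenes, PGAM1 13, LDHA 6, PKM 5, TPI1 4, ENO1 4 and PGK1 2, and how reads that match several copies were counted is not given in the sources used here, so the values of these genes are uncertain to that extent.

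In the upper stretch, which spends ATP and splits the sugar, 1 of 7 members fell with the knockdown. TPI1, triose-phosphate isomerase, interconverts the products of the split. It held 541 and 565 FPKM untreated and 543 and 560 after TGF-β in scrambled-shRNA cells, and 350 and 323, and 320 and 363, under SOX4 shRNA. Again the 2 shRNAs did not overlap. Exons of SPSB2 overlap those of TPI1 on the other strand, and without the strand setting of the counting their reads cannot be told apart. TPI1 fell by 0.72 ± 0.10 in untreated cells (limma adjusted p = 0.028) and by 0.69 ± 0.10 with TGF-β (adjusted p = 0.031). These calls sit near the threshold: leaving out each library in turn kept the size between -0.78 and -0.60 but ended the call in 6 of 8 cases in either comparison (any scrambled-shRNA library or either SOX4-shRNA library compared), with adjusted p up to 0.32.

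PFKP, the platelet form of phosphofructokinase, the committing enzyme of glycolysis, held 87.4 and 76.2 FPKM untreated and 90.3 and 92.2 with TGF-β in scrambled-shRNA cells. Under SOX4 shRNA it held 53.6 and 42.1, and 60.9 and 68.0. The 2 sets of 4 libraries did not overlap, but the changes of -0.77 ± 0.15 and -0.50 ± 0.15 did not pass the test (limma adjusted p = 0.072 and 0.21). Neither hexokinase, the enzymes that trap glucose in the cell, was called in limma. HK2 was at 0.35 ± 0.11 and 0.48 ± 0.11 (adjusted p = 0.14 and 0.058; limma-voom called the second), and HK1 at -0.06 ± 0.15 and 0.15 ± 0.15. The aldolases ALDOA and ALDOC and the isomerase GPI lay between -0.29 and 0.23 with no call, and the libraries of ALDOA spread so widely, from 107 to 359 FPKM, that its SE was 0.49.

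PFKFB4 makes and degrades fructose 2,6-bisphosphate, the allosteric activator of phosphofructokinase, and was the only member called in all 4 comparisons of groups. Untreated scrambled-shRNA libraries held 14.6 and 12.4 FPKM and TGF-β raised them to 25.3 and 24.2. Untreated SOX4-shRNA libraries held 3.44 and 4.04, the lowest of all, and TGF-β brought them to 9.27 and 13.5, a range that overlaps the untreated scrambled libraries. The knockdown lowered PFKFB4 by 1.61 ± 0.17 in untreated cells (limma adjusted p = 0.0025), its mean going from 13.5 to 3.74 FPKM, or 3.61-fold. With TGF-β it fell by 1.08 ± 0.17 (limma adjusted p = 0.015), its mean FPKM being 2.17-fold lower. The latter call was lost without scrambled TGF-β library 1 or 2 (-1.05 and -1.10, adjusted p = 0.14 and 0.13). TGF-β raised it by 0.83 ± 0.17 under scrambled shRNA (adjusted p = 0.028), a call that leaving out any scrambled-shRNA library ended (adjusted p up to 0.21), and by 1.37 ± 0.17 under SOX4 shRNA (adjusted p = 0.0033). The difference between both responses, 0.54 ± 0.25, did not pass the test (limma adjusted p = 0.99). The gene shares exon sequence with UCN2 on the same strand, so reads of the shared stretch cannot be assigned. PFKFB3, the related enzyme with the stronger kinase activity, was at -0.10 ± 0.14 and 0.14 ± 0.14 with the knockdown and was not called in any comparison.

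LDHA, the lactate dehydrogenase subunit that favours lactate formation, fell beside them. Its level is known only up to a factor of 10 or 100. At the lowest reading the scrambled-shRNA libraries held 7.63 and 8.02 FPKM untreated and 8.71 and 8.49 after TGF-β, and the SOX4-shRNA libraries 3.54 and 3.88, and 4.5 and 3.72. At the highest, the same libraries would run from 763 and 802 down to 354 and 388, and so on in the same ratios. The 2 shRNAs did not overlap. LDHA fell by 0.91 ± 0.13 in either comparison, computed at the lowest reading (limma adjusted p = 0.032 and 0.031). Its mean FPKM was 2.11-fold and 2.09-fold lower, a ratio that is the same at each of these levels. The pattern of readings held a posterior probability of 0.966, and a shift of the SOX4-shRNA values by 1 mark would make them 4.73-fold higher or 21.1-fold lower in untreated cells. Leaving out each library in turn kept the change between -1.02 and -0.80 and ended the call in 6 of 8 cases untreated (any but the SOX4-shRNA TGF-β libraries) and in all 8 with TGF-β (adjusted p from 0.046 to 0.31). PDK1, a kinase that inhibits pyruvate dehydrogenase, was at 0.20 ± 0.29 and -0.14 ± 0.29.

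Of 3 transporters of sugar and lactate, limma called 0 with the knockdown, and limma-voom on whole reads called 0 of the 2 it covered. Over all genes the knockdown lowered 3.24% (whole reads) and 0.856% (larger fit) untreated, and 2.87% and 0.733% with TGF-β. Under an unadjusted limma p of 0.05 stood 2 of the 3 untreated and 1 with TGF-β. Over all genes 990 of 5184 with whole reads and 1501 of 10511 of the larger fit were under it untreated. With TGF-β these were 866 and 1376. SLC2A3, a neuronal-type glucose transporter also known as GLUT3, held 6.49, 6.63, 7.61 and 6.53 FPKM in scrambled-shRNA cells and 4.95, 5.52, 4.92 and 5.10 with SOX4 shRNA (untreated libraries first). The sets did not overlap, at -0.28 ± 0.12 and -0.42 ± 0.12 (limma adjusted p = 0.25 and 0.11). SLC16A3, the lactate exporter MCT4, was at -0.73 ± 0.27 and -0.38 ± 0.27 (adjusted p = 0.28 and 0.66), with its level known only up to a factor of 10. SLC2A1, the ubiquitous transporter GLUT1, held 44.7 to 61.8 FPKM over all 8 libraries, at -0.21 ± 0.16 and 0.09 ± 0.16.

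**Figure D2:**
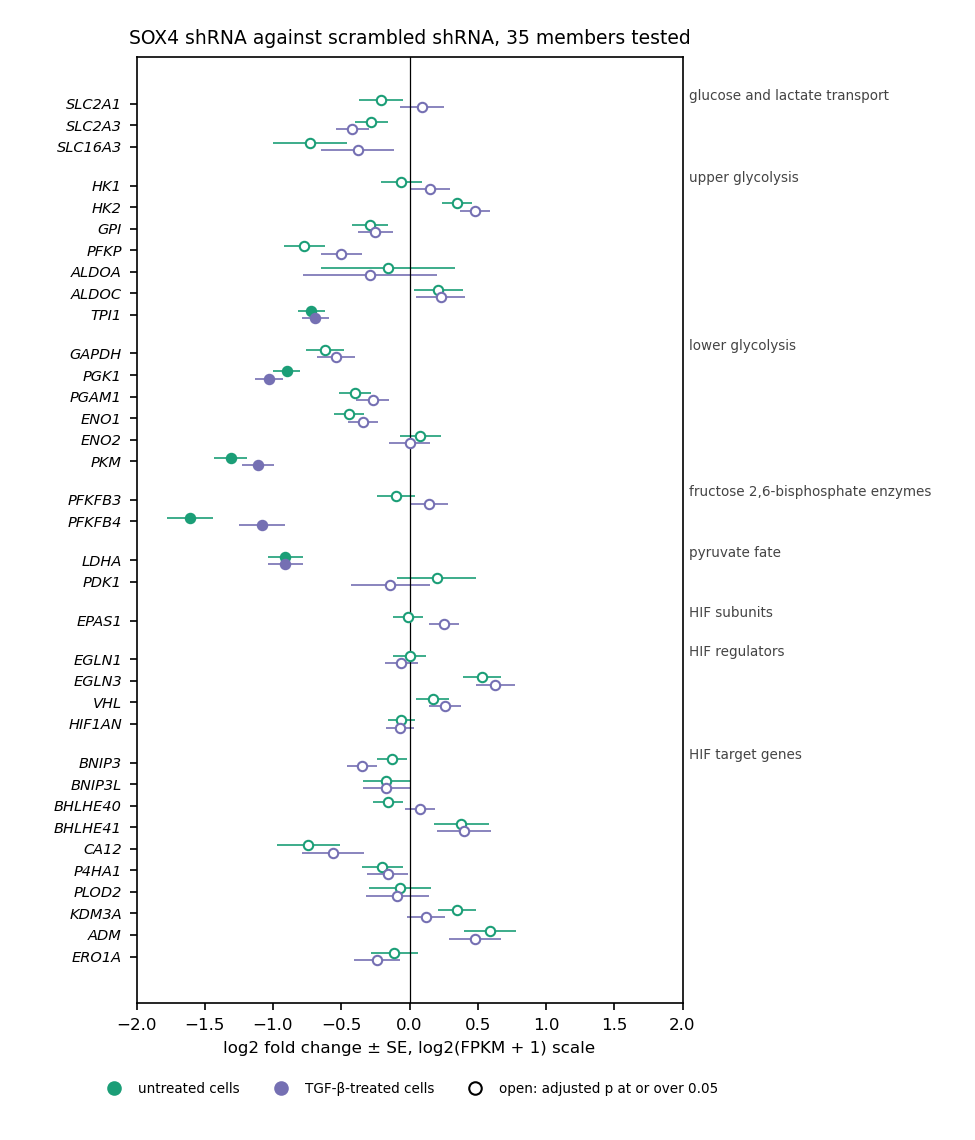
Difference in log2(FPKM + 1) between SOX4-shRNA and scrambled-shRNA cells (horizontal axis, points with SE) for the 35 members tested, in order of their role, in untreated (green) and TGF-β-treated cells (violet). Filled points passed the test; they are TPI1, PGK1, PKM, PFKFB4 and LDHA, all to the left of 0 at either treatment, while members of the HIF system stand on either side of 0.

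Over all 35 members tested, 11 had all 4 SOX4-shRNA libraries below all 4 scrambled ones, which is 31.4% of them, against 5.81% of the 10511 genes. They were SLC2A3, PFKP, TPI1, GAPDH, PGK1, PGAM1, ENO1, PKM, LDHA, BNIP3 and CA12. The opposite held for 2 members, EGLN3 and VHL, or 5.71% against 4.45% of all genes. The members below included enzymes of each step from triose-phosphate isomerase to lactate.

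Highly expressed genes as a whole stood slightly lower in SOX4-shRNA cells. Among the 451 genes of at least 100 FPKM whose level was settled, the median change with the knockdown was -0.15 in untreated cells and -0.07 with TGF-β, against 0.00 and 0.02 among the 2904 genes of 10 to 100 FPKM. In this high group 5% of genes were below -0.64 untreated and below -0.48 with TGF-β. PKM, PGK1 and TPI1 lay beyond both limits, GAPDH beyond the second only, and ENO1 and PGAM1 beyond neither. The part of this trend in the members' falls was not tested.

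**Figure D3:**
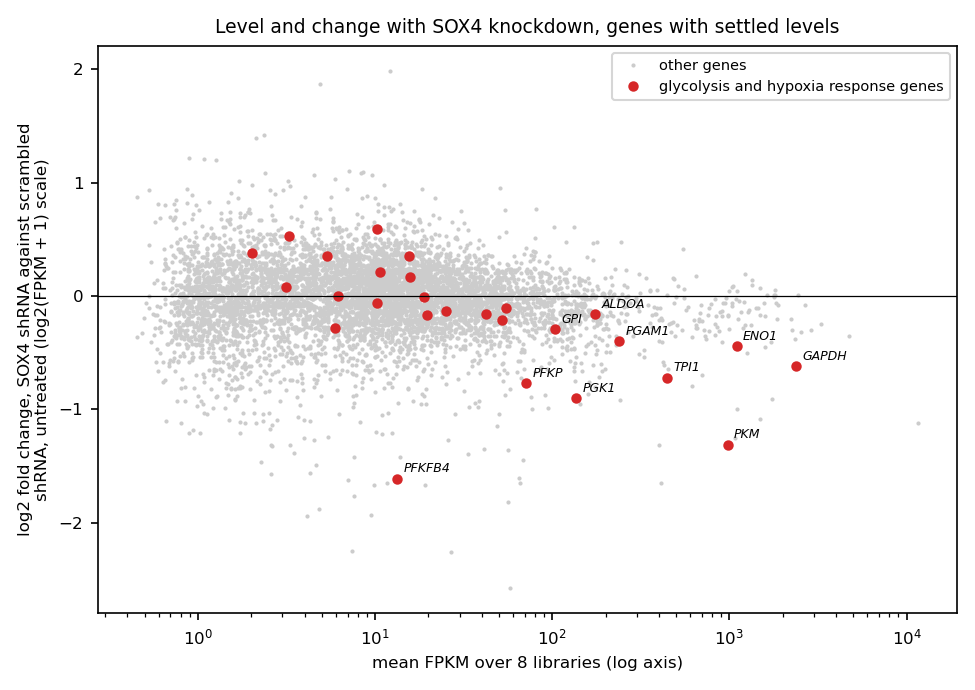
Change with the knockdown in untreated cells, as a difference in log2(FPKM + 1), against the mean FPKM over 8 libraries (log axis), for genes with settled levels (grey) and the 27 members among them (red). The members above 100 FPKM lie below 0, with PKM at -1.31 and PGK1 at -0.90 at or beyond the lower edge of genes of their level, and PFKFB4 at -1.61 stands low among genes near 10 FPKM.

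The promoters of the 5 members that fell are shown because hypoxia-inducible factors bind a short core, ACGTG or GCGTG, in such regions. Sequences are RefSeq's, build GRCh38.p14, 300 bases around the annotated start, 5′ to 3′ on the gene's strand, with each match to the core in capitals on either strand (CACGT and CACGC are its reverse complements). A CACGTG counts as a match on each strand.
LDHA (chr11:18394313-18394612, plus strand): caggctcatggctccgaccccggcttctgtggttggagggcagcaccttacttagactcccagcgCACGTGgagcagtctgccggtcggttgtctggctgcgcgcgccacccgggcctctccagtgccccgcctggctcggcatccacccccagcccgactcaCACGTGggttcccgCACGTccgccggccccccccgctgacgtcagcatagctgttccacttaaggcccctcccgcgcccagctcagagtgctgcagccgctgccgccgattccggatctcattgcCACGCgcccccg
PGK1 (chrX:78103998-78104297, plus strand): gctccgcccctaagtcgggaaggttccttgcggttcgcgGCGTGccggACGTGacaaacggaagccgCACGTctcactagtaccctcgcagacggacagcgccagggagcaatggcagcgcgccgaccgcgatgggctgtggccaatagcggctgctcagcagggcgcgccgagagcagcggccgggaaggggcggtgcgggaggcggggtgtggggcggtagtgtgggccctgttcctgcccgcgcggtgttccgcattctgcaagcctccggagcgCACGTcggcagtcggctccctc
PFKFB4 (chr3:48556754-48557053, minus strand): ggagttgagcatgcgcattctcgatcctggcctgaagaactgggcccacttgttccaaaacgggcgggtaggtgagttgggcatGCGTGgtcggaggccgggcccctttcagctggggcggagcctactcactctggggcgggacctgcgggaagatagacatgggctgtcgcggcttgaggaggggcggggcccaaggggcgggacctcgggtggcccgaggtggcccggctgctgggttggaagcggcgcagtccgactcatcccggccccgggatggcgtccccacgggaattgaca
PKM (chr15:72231141-72231440, minus strand): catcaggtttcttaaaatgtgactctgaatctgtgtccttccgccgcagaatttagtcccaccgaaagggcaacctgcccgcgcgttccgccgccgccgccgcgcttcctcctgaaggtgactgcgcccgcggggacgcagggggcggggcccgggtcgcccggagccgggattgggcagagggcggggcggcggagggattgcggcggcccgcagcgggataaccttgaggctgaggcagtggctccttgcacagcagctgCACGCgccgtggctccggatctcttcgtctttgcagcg
TPI1 (chr12:6867281-6867580, plus strand): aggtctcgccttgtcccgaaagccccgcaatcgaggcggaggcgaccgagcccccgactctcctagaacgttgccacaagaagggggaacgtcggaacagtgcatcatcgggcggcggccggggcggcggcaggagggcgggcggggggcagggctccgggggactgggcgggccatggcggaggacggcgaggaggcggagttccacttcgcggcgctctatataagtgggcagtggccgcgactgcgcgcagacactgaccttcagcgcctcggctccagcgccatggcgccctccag
LDHA held 6 matches, PGK1 4, PFKFB4 1, PKM 1 and TPI1 0 in these windows. Of 38 members with a promoter in the table, 27 (71.1%) held at least 1 match, against 48.4% of 27305 promoters of the same length. The member promoters were also richer in G and C, with a median of 69.5% against 58.3%, and the part of base composition in the difference was not tested. The letters ACAAAG or ACAATG, a core that SOX proteins bind, searched on both strands and chosen after the expression values were seen, stood in 4 of the 38 (10.5%), against 24.6% of all promoters. A match is a description of letters and not a bound site.

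With TGF-β, 4 members were called. In scrambled-shRNA cells 3 of the 18 members with whole reads rose (PFKFB4, BHLHE40, BNIP3L), where 4.78% of all genes of the fit rose, and 1 fell (HK2), where 2.26% fell. In SOX4-shRNA cells the same 3 rose and 0 fell, where 6.02% of genes rose and 2.35% fell; limma-voom on whole reads called 3 that rose and 1 that fell, HK2. Of the 17 members of the larger fit, limma called 0 in either kind of cell, and 2 and 5 of them were under an unadjusted p of 0.05, as were 1912 and 1916 of the 10511 genes. In that fit 1.09% of genes rose and 0.133% fell in scrambled-shRNA cells, and 2.26% rose and 0.304% fell in SOX4-shRNA cells. Every alternative run also gave 0 for these 17. The median change of the 18 was 0.00 in scrambled-shRNA and -0.03 in SOX4-shRNA cells, against -0.03 and -0.04 over all genes.

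BHLHE40, also known as DEC1, a transcriptional repressor induced by hypoxia and by TGF-β signalling, rose with TGF-β in both kinds of cell. Untreated libraries held 25.8 and 25.8 FPKM with scrambled and 24.3 and 21.6 with SOX4 shRNA, and TGF-β-treated ones 59.6 and 57.4, and 58.0 and 66.0. Treated and untreated libraries did not overlap, and at either treatment the 2 shRNAs lay close together. BHLHE40 rose by 1.15 ± 0.11 under scrambled shRNA (limma adjusted p = 0.0024), where mean FPKM was 2.27-fold higher. Under SOX4 shRNA it rose by 1.40 ± 0.11 (limma adjusted p = 0.00063), where mean FPKM was 2.70-fold higher. Without scrambled TGF-β library 1 the first was 1.13 with an adjusted p of 0.052. It lies on chromosome 3 at 5021122 to 5027008 (GRCh37, plus strand), where the antisense gene BHLHE40-AS1 overlaps its exons, and without the strand setting of the counting their reads cannot be told apart. The related BHLHE41 was low, at 1.20 to 3.12 FPKM, and its changes of -0.35 ± 0.20 and -0.33 ± 0.20 were not called.

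BNIP3L, a mitochondrial receptor for the removal of mitochondria, held 13.0 and 15.8 FPKM in untreated and 28 and 26.0 in TGF-β-treated scrambled-shRNA cells. Under SOX4 shRNA it held 10.9 and 14.8, and 26.7 and 21.4. All 4 treated libraries lay above all 4 untreated ones. Exons of PNMA2 overlap those of BNIP3L on the other strand, with the same limit on telling reads apart. BNIP3L rose by 0.86 ± 0.17 in either kind of cell (limma adjusted p = 0.025 and 0.023), and leaving out a library ended the call in 4 of 8 cases in each, with adjusted p up to 0.20. Under scrambled shRNA these were the 4 scrambled libraries, and under SOX4 shRNA either scrambled TGF-β library or SOX4-shRNA library 1 of either treatment. BNIP3, its paralogue, did not follow, at -0.01 ± 0.11 and -0.23 ± 0.11, with 44 annotated pseudogenes that make its value uncertain. HK2 moved the other way. Scrambled-shRNA cells held 15.6 and 16.2 FPKM untreated and 11.1 and 10.1 after TGF-β, and cells with SOX4 shRNA 21.1 and 19.9, and 15.9 and 14.5. Treated libraries were lower at either shRNA, at -0.54 ± 0.11 in scrambled-shRNA cells, a call (limma adjusted p = 0.028), and at -0.41 ± 0.11 under SOX4 shRNA (adjusted p = 0.064; called by limma-voom). Leaving out any 1 of the 4 scrambled-shRNA libraries ended the call of HK2 (adjusted p up to 0.25).

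**Figure D4:**
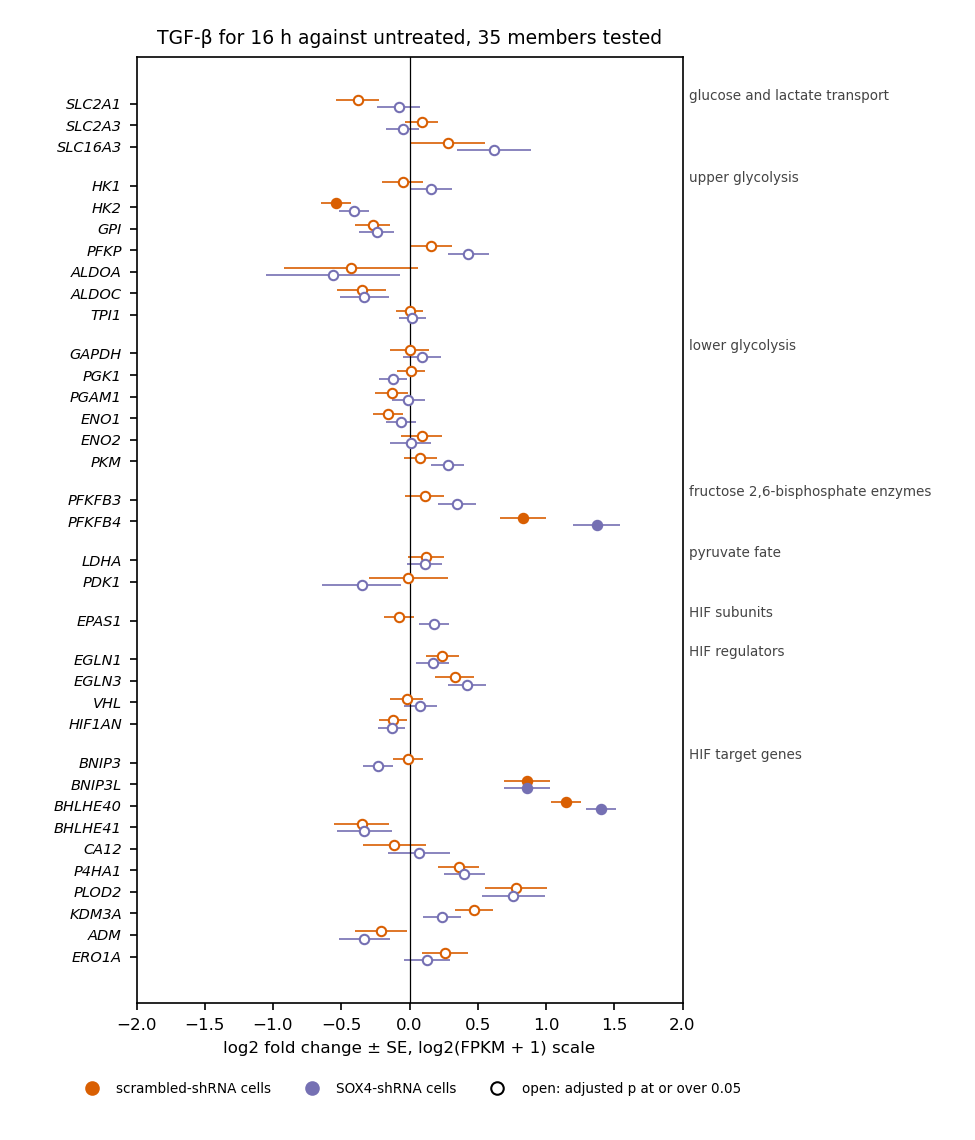
Difference in log2(FPKM + 1) between TGF-β-treated and untreated cells (horizontal axis, points with SE) for the same 35 members by role, in scrambled-shRNA and SOX4-shRNA cells. Filled points passed the test: PFKFB4, BHLHE40 and BNIP3L to the right in both kinds of cell and HK2 to the left in scrambled-shRNA cells only, where the difference between the kinds of cell, 0.13, was not called, while PGK1, TPI1 and GAPDH sit near 0.

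Of the 5 tested genes of the HIF system itself, limma called 0 in any comparison, and limma-voom called 0 of 4. Over all genes 0.133% to 6.02% were called in a direction, by comparison of groups and fit. At such shares 0 of 5 does not show that these genes were unchanged. At most 2 of the 5 were under an unadjusted limma p of 0.05. These were EPAS1 and EGLN3 for the knockdown with TGF-β, where 866 of 5184 genes with whole reads were under it. Of the α subunits, EPAS1 (HIF-2α) held 17.4 to 21.7 FPKM over the 8 libraries, with changes from -0.08 to 0.25. HIF1A (HIF-1α) and ARNT could not be read with confidence. EGLN3, the prolyl hydroxylase most strongly induced by hypoxia, held 2.01 and 2.04 FPKM in untreated and 2.67 and 2.92 in treated cells with scrambled shRNA, and 3.77 and 3.02, and 4.32 and 5.44, with SOX4 shRNA. All 4 SOX4-shRNA libraries lay above all 4 scrambled ones, at 0.53 ± 0.14 and 0.63 ± 0.14, short of the threshold (limma adjusted p = 0.088 and 0.056). VHL, the recognition subunit of the ligase, held 14.1 to 14.9 FPKM with scrambled and 15.7 to 18.0 with SOX4 shRNA, at 0.17 ± 0.12 and 0.26 ± 0.12 (adjusted p = 0.59 and 0.42). EGLN1, the main hydroxylase under normal oxygen, and HIF1AN, the asparagine hydroxylase, were within 0.24 of no change.

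Of the 15 HIF target genes outside glycolysis, 10 were tested. With TGF-β 2 rose (BHLHE40 and BNIP3L) in either kind of cell, both among the 6 with whole reads, where 4.78% and 6.02% of all genes rose, and with the knockdown 0 were called in limma, the smallest adjusted p being 0.14 untreated and 0.16 with TGF-β. In each knockdown comparison 3 were under an unadjusted p of 0.05, and limma-voom called 0 of 6. Over all genes, 990 of 5184 with whole reads and 1501 of 10511 of the larger fit were under it in untreated cells, and 866 and 1376 with TGF-β. Their changes with the knockdown ran from -0.74 to 0.59 untreated and from -0.56 to 0.48 with TGF-β. The ends of this range were CA12, a membrane carbonic anhydrase, at -0.74 ± 0.23 and -0.56 ± 0.23, and ADM, the vasodilator adrenomedullin, at 0.59 ± 0.19 and 0.48 ± 0.19. PLOD2 and P4HA1, which hydroxylate collagen lysine and proline, stood with TGF-β at 0.78 ± 0.23 and 0.76 ± 0.23 and at 0.36 ± 0.15 and 0.40 ± 0.15, without a call (limma adjusted p from 0.14 to 0.28). The levels of CA12, PLOD2 and P4HA1 are known only up to a factor of 10. KDM3A, a histone demethylase, and ERO1A, an oxidase of disulfide formation in the endoplasmic reticulum, were within 0.47 of no change in every comparison. The 2 targets below the filter were CA9, the hypoxia-induced carbonic anhydrase, at 0.212 to 1.44 FPKM and ANKRD37 at 0.293 to 0.974, while others were well expressed, such as BNIP3 at 20.6 to 27.4 and ERO1A at 44.4 to 63.9. The remaining targets NDRG1, P4HA2 and MXI1 are among the 5 genes without settled readings, together with HIF1A and ARNT, and no direction is given for them.

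Neighbouring pathways were described from lists drawn up beside the members. Of 32 other glycolysis and lactate genes, 15 were tested and 0 were called in limma in any comparison, with medians of -0.07 and -0.09 for the knockdown. With the knockdown 4 of the 15 were under an unadjusted limma p of 0.05 in untreated cells and 6 in TGF-β-treated ones. Over all genes, 990 of 5184 with whole reads and 1501 of 10511 of the larger fit were under it untreated. With TGF-β these were 866 and 1376. TGF-β treatment gave 2 of the 15 in scrambled-shRNA and 4 in SOX4-shRNA cells. Limma-voom called 0 of 4. In untreated cells the knockdown lowered 3.24% and raised 1.1% of all genes with whole reads, and 0.856% and 0.228% in the larger fit. At such shares 0 of 15 does not show that these genes were unchanged. Of 23 genes of pyruvate dehydrogenase and the citric acid cycle, 20 were tested, again with 0 calls in limma, 1 to 3 under an unadjusted p of 0.05, 0 of 8 called by limma-voom, and medians of -0.05 and -0.07 for the knockdown. In the pentose phosphate pathway, which branches off glycolysis, 1 of 7 fell with the knockdown: PGD, which makes NADPH. Over all genes 3.24% (whole reads) and 0.856% (larger fit) fell untreated, and 2.87% and 0.733% with TGF-β. PGD went from a mean of 127 to 87.1 FPKM untreated (-0.54 ± 0.10, limma adjusted p = 0.026). With TGF-β it went from 106 to 75.8 (-0.48 ± 0.10, limma adjusted p = 0.042), where limma-voom called 0 of the pathway's 4 genes with whole reads. RPIA of the same pathway fell with TGF-β by 0.53 ± 0.13 and 0.50 ± 0.13 (limma adjusted p = 0.045 and 0.049), where 2.26% and 2.35% of genes with whole reads fell.

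Of 31 other hypoxia genes, 23 were tested, of which 12 by whole reads. TGF-β raised 4 in either kind of cell and lowered 0, where over all genes 4.78% (whole reads) and 1.09% (larger fit) rose under scrambled shRNA and 6.02% and 2.26% under SOX4 shRNA. Examples in scrambled-shRNA cells were HMOX1, heme oxygenase 1 (mean 4.59 to 13.7 FPKM, 1.39 ± 0.16, limma adjusted p = 0.0044), STC2, a secreted glycoprotein (0.86 ± 0.11, adjusted p = 0.0057) and CCNG2, an atypical cyclin (1.03 ± 0.15, adjusted p = 0.0090). With the knockdown limma called 0 of the 23 in untreated cells (6 under an unadjusted p of 0.05, and 0 of 12 by limma-voom) and 1 with TGF-β. DDIT4, an inhibitor of mTORC1 induced by hypoxia and stress, rose by 0.76 ± 0.13 in TGF-β-treated cells, from a mean of 146 to 247 FPKM (limma adjusted p = 0.018). In that comparison 1.12% of genes with whole reads and 0.133% of the larger fit rose. Untreated, the mean of DDIT4 was 135 FPKM with scrambled and 188 with SOX4 shRNA, without a call. Of 10 other HIF pathway genes tested limma called 0, with 0 to 2 under an unadjusted p of 0.05 and 0 of 3 called by limma-voom. Over all genes 0.133% to 6.02% were called in a direction, by comparison of groups and fit. Of 4 glucose-sensing genes, TXNIP, an inhibitor of glucose uptake, fell by 0.74 ± 0.17 with TGF-β in scrambled-shRNA cells (limma adjusted p = 0.037), where 2.26% of genes with whole reads fell. Under SOX4 shRNA its mean went from 4.81 to 3.96 FPKM, not called in limma. MLXIP rose by 0.71 ± 0.15 under SOX4 shRNA (limma adjusted p = 0.028), where 6.02% of genes with whole reads rose. Its mean went from 15.8 to 26.4 FPKM there and from 16.5 to 24.9 under scrambled shRNA, the latter not called in limma.

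The interaction, which asks whether TGF-β acted differently in SOX4-shRNA cells, was called for 0 of the 35 members and for 0.0% of all genes in either fit (limma). At an unadjusted p under 0.05 the count of members was also 0, and limma-voom on whole reads called 0 of 18.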

How the data were processed

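The tools Cuffdiff, Cufflinks 2.2.1 and TopHat2 2.0.9 and the build hg19 come from the submitters' processing notes. How strand and scaling were set is not given in the sources used here. The kit is a stranded ribosomal-depletion kit, while another label names polyA RNA. The authors deposited 1 table of 48175 RefSeq transcripts in 8 columns, of which 97.76% matched a symbol. These deposited values were taken as FPKM, given the tools and the range of the numbers. Cells in damaged exponent notation (13.9%) were set to 0.

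Lost decimal marks were restored by fitting whole reads to each single transcript (92.6% of 5654 genes searched; 8 genes with random last digits), then weighing readings by replicate spread, effect sizes and level (t with 3 degrees of freedom, posterior of at least 0.95, offset 0.1 FPKM, replicates within 10-fold). For 246 genes with several transcripts, whole reads were also fitted to 1 transcript where the others were at 0 in most libraries. On 3993 single-transcript genes with a settled pattern, 3991 patterns stayed the same when the reads were left out. The readings compared against came from the same model with the reads added, so the check is of agreement within the model. It does not cover genes with several transcripts. This reading model is the last of 4 versions tried, all after the members' values and calls had been seen; it was kept because the first accepted impossible readings near 0, the second lowered levels and the third departed from the planned choice of transcript. Pattern weights favour small effects.

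Tests used limma 3.58.1 (R 4.3.3, trend, 4 residual degrees of freedom) on log2(FPKM + 1). In simulated data, 81.4% to 91.5% of 2-fold changes with knockdown were recovered (5087 genes). In untreated cells 86 simulated rises and 79 falls were recovered, and 17 unchanged genes were called beside them. With TGF-β these numbers were 85, 81 and 6. Members and lists were chosen with earlier results of these data known. Named were called members, then the 2 largest changes per role, and up to 3 called genes per list; other members were chosen after their values were seen. Gene positions are GENCODE's on GRCh37.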

Additional observations from a re-analysis of the deposited data

How the results depend on the processing

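PGK1 was called under every alternative in both knockdown comparisons, as were PFKFB4 for the knockdown in untreated cells and for TGF-β in SOX4-shRNA cells, and BHLHE40 for the latter. Over the 21 called changes, SOX4 included, no alternative reversed a direction, 395 of 485 alternative values were still called and 90 were not. Of 18 members with whole reads, those called with TGF-β in scrambled-shRNA cells numbered 4, but 2 without a filter, 1 with the replicate number as a block and 1 in the fit of all kept transcripts. With the knockdown and TGF-β they numbered 2, but 1 without a filter and 1 in that fit. Of the 17 others, 3 were called with the knockdown in untreated cells, but 1 without a filter, 1 with the block and 0 with the compared groups alone. With TGF-β also 3 were called, but 1 without a filter, 1 with the block, 1 with the compared groups alone and 1 of 5 in sums over transcripts. The cause was not tested.

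Leaving out 1 library gave 0 to 4 of the first 18 for TGF-β in scrambled-shRNA cells (0 without scrambled TGF-β library 1 and 1 without any other scrambled library), 2 to 3 for TGF-β in SOX4-shRNA cells and 2 and 1 to 3 for the knockdown untreated and with TGF-β, and, of the other 17, 1 to 3 and 0 to 2 for the knockdown. Without scrambled TGF-β library 1 or 2 or SOX4-shRNA TGF-β library 1 the last was 0. A lone library was assumed to vary like the others. Replicate numbers pair nothing in the labels. Differences between replicates 1 and 2 correlated at 0.70 (untreated) and 0.63 (TGF-β) between the 2 shRNAs, but at -0.46 to -0.82 between treatments. Libraries of the 2 shRNAs at the same treatment thus shared a pattern by replicate number, and the main fit treats them as independent. The block codes replicate 2 alike at both treatments, so it cannot take up a pattern whose sign changes between them.

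The 3 earlier versions of the reading model, added after seeing the data, gave the same 17 member calls in the same 8 genes, with 35, 35 and 38 members tested. The first called 70 of 10496 genes for the knockdown in untreated cells and 192 for TGF-β in SOX4-shRNA cells, against 114 and 270 of 10511. Recovery of changes below 2-fold was not simulated.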
